A study of Mus musculus with 2 samples.

Results

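The regions described here are narrow stretches of the mouse genome in which macroH2A1.1 was strongly enriched over input in C2C12 cells. They were chosen by their measured values. A region was taken when it lay on an autosome, was 2000 bp wide or less, held 4 input reads or more, and had a ChIP read count at least 4 times its input read count multiplied by 1.45, the factor that puts the 2 libraries on one scale. This ratio of ChIP to scaled input is called the enrichment below. Of the 50887 regions in the deposited list, 1467 met the rule (members hereafter). They made up 2.99% of the 49047 autosomal regions and 21.0% of the 6983 autosomal regions that were equally narrow and had the input minimum (95% exact interval 20.1 to 22.0%, Clopper-Pearson). The 5516 equally narrow regions with an enrichment under 4-fold serve as the comparison.

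C2C12 is an immortal mouse myoblast line that leaves the cell cycle and fuses into myotubes in serum-poor medium. One library was prepared from chromatin precipitated with a laboratory-made antibody against macroH2A1.1, and 1 from input chromatin without antibody, both of genotype Wild Type and from the same line. The labels name the source as myoblast, whereas their short descriptions carry DM, the abbreviation for differentiation medium, and the study places the profile in myotubes, so the stage of the cells is not settled by the labels. With 1 library on each side there is no error between replicates, and no test between conditions was possible. All intervals cover counting error only, and reads copied by PCR are not independent molecules. Intervals of shares treat regions as independent, although many regions lie close together.

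MacroH2A is a histone H2A variant that carries a large globular macrodomain behind its histone fold. The splice isoform macroH2A1.1 differs from macroH2A1.2 in the pocket of this domain and is the isoform that binds ADP-ribose and ADP-ribosylated PARP1. MacroH2A is known for covering broad chromatin domains, among them the inactive X chromosome, rather than for sharp peaks.

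Members held few reads. The ChIP count of a member ranged from 24 to 253 with a median of 41 (quartiles 37 and 47), and its input count from 4 to 33 with a median of 6 (quartiles 5 and 7). In 1056 members (72.0%) the input count was 4, 5 or 6, and only 16 members held more than 10 input reads. Enrichment ran from 4-fold to 17.2-fold with a median of 4.97-fold. In 748 members (51.0%) it was under 5-fold, in 35 it was 8-fold or more and in 6 it was 10-fold or more. Pooled over all members, 63231 ChIP reads stood against 8536 input reads on 2317 kb, which is 5.11-fold after scaling. Most members thus lay close to the limit that chose them, with a thin tail above.

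The comparison regions had nearly the same ChIP counts. Their median was also 41 ChIP reads (quartiles 37 and 45), whereas their median input count was 12 (quartiles 9 and 15). Per kb, members had a median of 26.5 ChIP reads and comparison regions one of 24.4. The medians of input reads per kb were 3.57 and 7.14. Members were therefore set apart from equally narrow regions mainly by a low input count and only slightly by a high ChIP count. Both counts entered the rule, so this is a description of what the rule took.

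**Figure D1:**
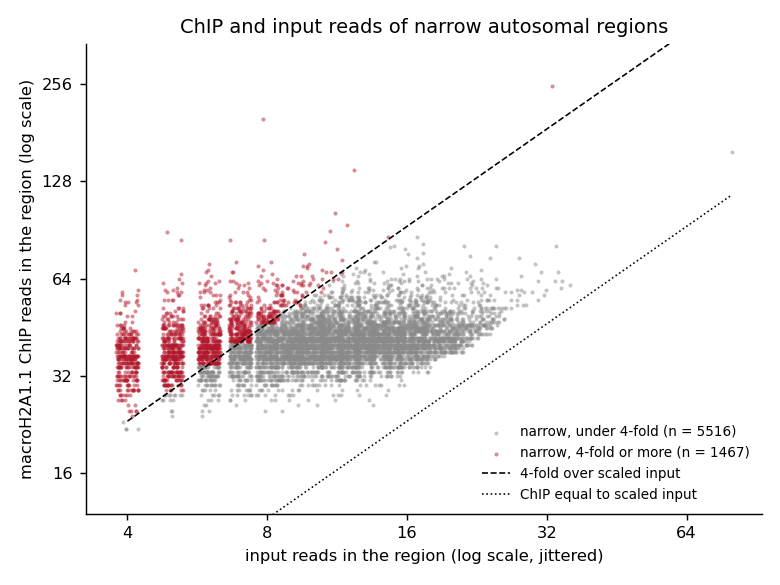
ChIP reads against input reads for each of the 6983 narrow autosomal regions, both on log scales, with members in red, comparison regions in grey, the 4-fold limit dashed and equal scaled counts dotted; input counts are jittered sideways. Both sets share a median of 41 ChIP reads, the members lie at the low-input side, and a few members stand far above the cloud.

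The same held at matched width. Widths were multiples of 200 bp, and members ranged from 400 to 2000 bp with a median of 1600 bp, against 1800 bp in the comparison. At 1000 bp, where 89 members and 209 comparison regions lay, the median ChIP count was 32 in both sets and the median input count was 5 and 8. At 2000 bp, with 331 members and 1654 comparison regions, the medians were 47 and 44 ChIP reads and 7 and 14 input reads. From 800 bp upward the share of narrow regions that were members fell with width. It was 43.7% at 800 bp (52 members and 67 comparison regions), 24.7% at 1400 bp and 16.7% at 2000 bp. The narrower classes were small and had lower shares, 33.3% at 400 bp and 21.9% at 600 bp (7 members and 25 comparison regions). At 200 bp there were 2 comparison regions and 0 members. Counts rose with width, in the comparison from medians of 29 ChIP and 7 input reads at 800 bp to 44 and 14 at 2000 bp. Both counts entered the rule, the input count also through its minimum, so the shares by width are a description. Only at 400 bp did the ChIP medians part widely, at 55.5 reads in 4 members and 26.5 in 8 comparison regions.

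**Figure D2:**
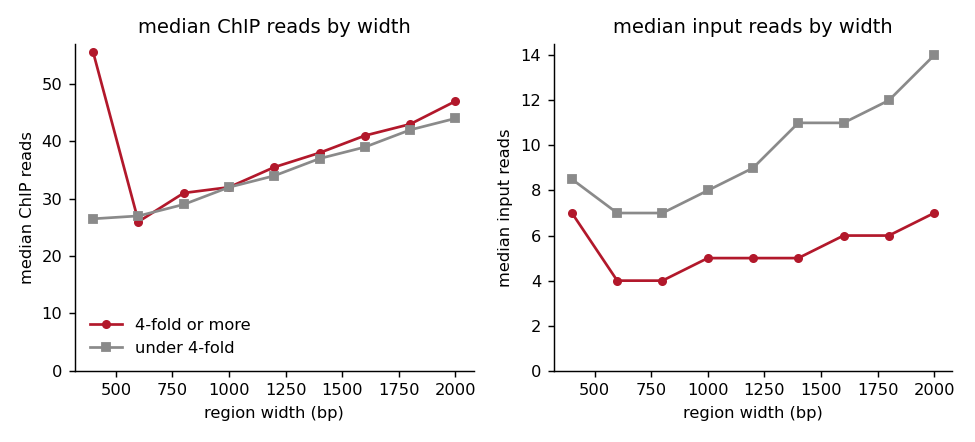
Median ChIP reads (left) and median input reads (right) of members (red circles) and comparison regions (grey squares) at each region width from 400 to 2000 bp. The ChIP medians nearly coincide from 600 bp upward, while the input medians of the members are lower at each width shown.

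At these depths a single enrichment is uncertain. The median member had an exact interval whose lower end, called the lower limit, was at 2.06-fold. This limit reached 2-fold in 852 of 1467 members (58.1%), 3-fold in 56 and 4-fold in 5. Among all 48659 autosomal regions with 4 input reads or more, 7.58% had an enrichment of 4-fold or more and 11.6% had a lower limit of 2-fold or more; since the rule used the same counts, nothing is read from the gap. The lower limit rested on both counts: it reached 2-fold in 239 of the 310 members with 4 input reads, whose median enrichment was 6.38-fold, in 150 of the 371 members with 6 input reads (4.6-fold), and in each of the 18 members with 10 input reads (4.31-fold).

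Values just at the limit show how little separates the sets. Exactly 4-fold was found in 7 members. Chromosome 1 had such a member at 62879801 to 62881400 and chromosome 5 one at 52801601 to 52803400, both with 58 ChIP reads and 10 input reads (95% exact interval 2.03 to 8.78). A further one, on chromosome 3 at 102510001 to 102511000, had 29 ChIP reads and 5 input reads (1.53 to 13.2). Just outside, at 3.98-fold, were 3 regions with 52 ChIP reads and 9 input reads each (1.95 to 9.20). They lay on chromosome 7 at 142678201 to 142680200, on chromosome 9 at 111525801 to 111527800 and on chromosome 14 at 69998401 to 70000400. The intervals on either side of the limit overlapped almost fully. All coordinates are 1-based in the mouse build mm9.

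The member with the highest enrichment was on chromosome 17 at 4626001 to 4627400. Over 1400 bp it held 200 reads from ChIP and 8 from input, enriched 17.2-fold (8.58 to 40.5). It was also isolated, with the nearest listed region 75 kb away and a single other region within 100 kb. Next came a member of 1600 bp on chromosome 1 at 135839001 to 135840600, with 89 ChIP reads and 5 input reads (12.3-fold, 5.07 to 38.7), which lay 1400 bp from a neighbour 16600 bp wide with 425 ChIP reads and 103 input reads. The member on chromosome 11 at 110851401 to 110853200 had 68 ChIP reads and 4 input reads (11.7-fold, 4.37 to 44.3). On chromosome 3, a member at 27800401 to 27802200 had 84 and 5 reads (11.6-fold, 4.77 to 36.6). The member on chromosome 7 at 139620601 to 139622600 had 59 and 4 reads (10.2-fold, 3.77 to 38.6). The intervals of these 5 members overlap, so that they cannot be ordered among themselves.

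On each of the 19 autosomes, the member with the highest lower limit had between 54 and 200 ChIP reads and between 4 and 13 input reads. These 19 members had enrichments from 6.39-fold, on chromosome 5 at 125265001 to 125267000 (102 and 11 reads, 3.43 to 13.2), to the 17.2-fold of chromosome 17. Their lower limits ran from 3.06-fold, on chromosome 15 at 36666201 to 36667800 (55 and 5 reads, 7.59-fold), to 8.58-fold. Intermediate examples were on chromosome 10 at 51739801 to 51741600 (84 and 8 reads, 7.24-fold, 3.51 to 17.3), on chromosome 2 at 25878601 to 25880600 (66 and 5 reads, 9.10-fold, 3.71 to 29.0) and on chromosome 14 at 118834001 to 118835800 (67 and 6 reads, 7.70-fold, 3.36 to 21.7). Every autosome thus held at least 1 member whose lower limit was above 3-fold. Each was picked by that limit among the members of its autosome, from counts that the rule had used. These limits therefore run high and are a description. Over all members, 56 of 1467 had a lower limit of 3-fold or more.

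**Figure D3:**
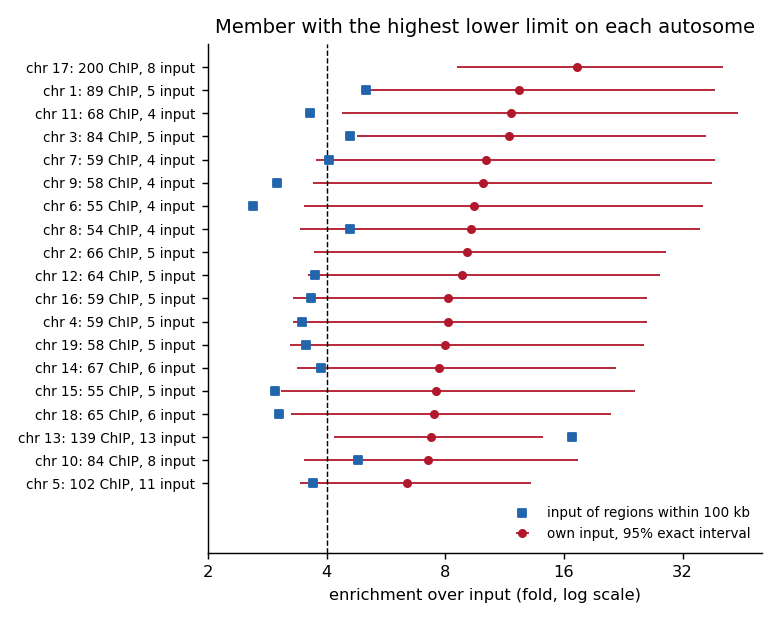
Enrichment over own input (red circles) with 95% exact intervals, on a log scale, for the member with the highest lower limit on each autosome, and the same ChIP count set against the input density of the listed regions within 100 kb (blue squares, drawn where 3 or more such regions existed); the dashed line marks 4-fold. Enrichment spans 6.39 to 17.2-fold, and 6 of the 17 blue squares lie at 4-fold or more.

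A small number of members had ChIP reads packed far more densely than the rest. More than 100 ChIP reads per kb were counted in 6 of 1467 members and in 3 of 5516 comparison regions, a limit set after the values were seen. The share over all listed regions is not given here. Such density was also found in narrow regions that the input minimum left out. On chromosome 6, those at 125826801 to 125827400 and at 69466201 to 69466600 had 103 and 120 ChIP reads per kb, each with 0 input reads. The member with the most ChIP reads of all, on chromosome 13 at 56205601 to 56206400, held 253 ChIP reads and 33 input reads on 800 bp (5.29-fold, 3.67 to 7.85), or 316 ChIP reads per kb. On the same chromosome, 23.2 kb further on, the member at 56229601 to 56230000 held 139 ChIP reads and 13 input reads on 400 bp (7.37-fold, 4.17 to 14.2), or 348 ChIP reads per kb. The other dense members were the one on chromosome 17 described above (143 ChIP reads per kb) and those on chromosome 2 at 16604601 to 16605000 (60 ChIP and 5 input reads), on chromosome 18 at 65587001 to 65587400 (51 and 8 reads) and on chromosome 1 at 12634601 to 12635000 (46 and 6 reads). The last 3 were 400 bp wide and had 150, 127.5 and 115 ChIP reads per kb.

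The pair on chromosome 13 lay among other dense regions. Within 100 kb of the first there were 5 other listed regions. Those at 56175601 to 56175800 and at 56197401 to 56197800 were comparison regions of 200 and 400 bp, with 160 and 127.5 ChIP reads per kb and enrichments of 3.68-fold and 3.52-fold. The region at 56184401 to 56185800 had 57.9 ChIP reads per kb and was enriched 2.33-fold. Input reads were dense here as well, at 41.3 per kb in the first member, 32.5 in the second and 30.0, 17.1 and 25 in these 3 neighbours, against 6.99 per kb over all autosomal regions. In the outermost region, at 56250601 to 56255200, both densities were low (18.3 ChIP and 7.17 input reads per kb). Hence both libraries piled up at this locus, unlike the member on chromosome 17, whose input density was 5.71 per kb.

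Since a low input count chose most members, their ChIP counts were also set against the input of other listed regions. The rule had not used that input to choose the region itself. The other regions can be members or comparison regions, and all had passed the caller against input, so they are no independent background. For each region the input reads per kb were pooled over all other listed regions within 100 kb and multiplied by its width. This was possible for the 1327 members with at least 3 such neighbours. Because the rule took regions with low input of their own, a shortfall against the surroundings follows from the choice and is given only to show its size. Members held 7734 input reads where the surrounding regions would give 13834, a ratio of 0.559, and 57273 ChIP reads where the surrounding regions would give 43961, a ratio of 1.30. In the 5015 comparison regions the ratios were 1.1 for input and 1.18 for ChIP. The input count was below that of the surroundings in 97.2% of members and in 42.8% of comparison regions. Pooled neighbours had 6.71 input reads per kb around members and 6.99 around comparison regions, and the median input count that they would give was 10.5 and 11.4. The part of sampling error of small input counts in the choice of members was not tested.

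With the input of the neighbours in place of their own, the median enrichment of members was 2.84-fold, against 2.55-fold in the comparison. An enrichment of 4-fold or more was kept by 116 of 1327 members (8.74%, 95% exact interval 7.28 to 10.4%) and reached by 153 of 5015 comparison regions (3.05%, 2.59 to 3.56%). The share over autosomal regions of any width with 4 input reads or more was 0.96%. The ChIP count is common to both versions of the ratio, so these shares are descriptions. In 790 members the value was under 3-fold, and in 61 it was under 2-fold.

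**Figure D4:**
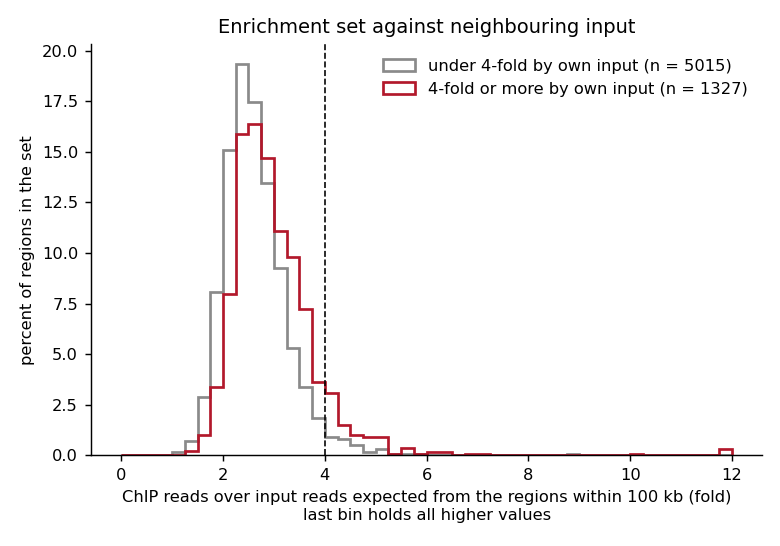
Distribution of enrichment when the ChIP count of a narrow region is set against the input density of the listed regions within 100 kb, as percent of regions in bins of fold, for 1327 members (red) and 5015 comparison regions (grey), with 4-fold dashed. The distributions overlap for the most part, with medians of 2.84-fold and 2.55-fold, and 8.74% of members lie at or beyond the dashed line.

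The 116 members that stayed at 4-fold or more were set apart from the other 1211 by their ChIP reads per kb, which are the numerator of this ratio, so their density and width follow from the split. Their median width was 1200 bp against 1600 bp, and their median ChIP density 38.1 reads per kb against 26.3, with a median of 6 input reads in both. They lay on all 19 autosomes. Only 30 reached 5-fold and 11 reached 6-fold. The highest values were those of the chromosome 13 pair, at 17.8-fold and 16.7-fold, followed by the 400 bp members on chromosome 1 (13.5-fold) and chromosome 18 (11.8-fold) named above. By their own input these 4 were enriched 5.29, 7.37, 5.29 and 4.40-fold, as their 33, 13, 6 and 8 input reads exceeded the 9.83, 5.73, 2.35 and 2.97 that the neighbours would give. Then came 4 further members. The one on chromosome 7 at 29231601 to 29233000 had 57 ChIP reads and 4 input reads, 9.83-fold by its own input and 10.1-fold by that of its neighbours. On chromosome 9, a member at 111216401 to 111217200 had 39 and 5 reads and reached 7.13-fold against its neighbours. The remaining ones were on chromosome 7 at 118369001 to 118370600 (63 and 8 reads, 6.94-fold) and at 108238401 to 108239200 (29 and 5 reads, 6.30-fold). Among the members with the highest own enrichment, the one on chromosome 1 fell from 12.3-fold to 5.03-fold, the one on chromosome 3 from 11.6-fold to 4.59-fold, and the one on chromosome 11 from 11.7-fold to 3.63-fold. The chromosome 17 member had too few neighbours for this comparison.

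Members were found on all 19 autosomes, with chromosome 1 (135) and chromosome 13 (120) holding the most and chromosome 19 (38) the fewest. Per Mb they were most frequent on chromosome 13, at 0.998, and least frequent on chromosome 7, at 0.354. As a share of the narrow regions of each chromosome the picture was different. On chromosome 7, 54 of 178 narrow regions were members (30.3%, 95% exact interval 23.7 to 37.7%), the highest share of the 19, followed by chromosome 17 (26.4%, 21.0 to 32.4%) and chromosome 13 (25.1%, 21.3 to 29.2%). On chromosome 15 it was 58 of 490 (11.8%, 9.11 to 15.0%), the lowest share, followed by chromosome 10 (17.2%, 13.9 to 21.0%). These intervals treat regions as independent, which nearby regions need not be, so they are no test between chromosomes. For most chromosomes the interval contained the share over all autosomes: it lay above in 3 chromosomes and below in 2, on chromosomes 10 and 17 only just. Chromosome 7 held 3.68% of the members and 2.25% of the comparison regions, and chromosome 15 held 3.95% and 7.83%.

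The autosome with the sparsest input had the highest share, and one with dense input had the lowest. Over all listed regions, chromosome 7 had 5.06 input reads per kb, the lowest of the autosomes. Chromosome 15 had 8.37, exceeded only by chromosome 8 with 9.40, where the share was 19.6%. Across the 19 autosomes the Pearson correlation between input reads per kb and the share of narrow regions that were members was -0.603 (Spearman -0.433). It was -0.571 (Spearman -0.289) over 17 without chromosomes 8 and 15, which lay farthest from the median density, and with chromosome 7 kept. No value without chromosome 7 is given, so these correlations do not show a trend over the other autosomes. Chromosome 17, with 7.09 input reads per kb, had the next highest share after chromosome 7, 26.4%. For ChIP reads per kb the Pearson correlation was -0.389 (Spearman -0.112), and -0.122 (Spearman 0.130) without chromosomes 8 and 15. All points share the same pair of libraries, and input is the denominator of the enrichment, so these values only describe the data. The part of input depth in the shares was not tested.

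Against the input of their neighbours, chromosomes 7 and 15 moved further apart. On chromosome 7, 17 of 42 members kept 4-fold or more (40.5%, 95% exact interval 25.6 to 56.7%), and on chromosome 15 it was 1 of 53 (1.89%, 0.0478 to 10.1%). Elsewhere the share ran from 2.13% on chromosome 16 to 16.1% on chromosome 14 (9 of 56, 7.62 to 28.3%). The median member had 43 ChIP reads and 6 input reads on both chromosomes, but the neighbours would have given 8.39 input reads on chromosome 7 and 13.4 on chromosome 15. Taking all narrow regions with neighbours, members or not, 37 of 129 reached 4-fold on chromosome 7 (28.7%) and 3 of 467 on chromosome 15 (0.642%).

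**Figure D5:**
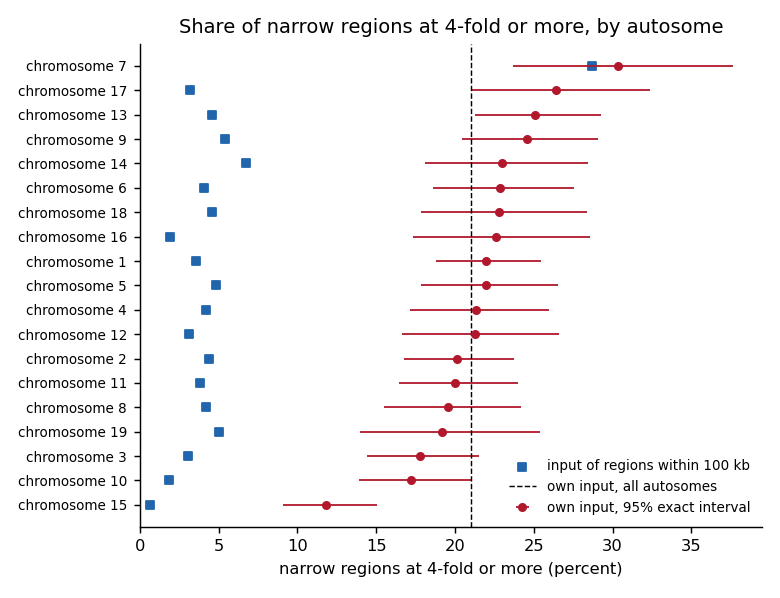
Percent of narrow regions with an enrichment of 4-fold or more on each autosome, by their own input with 95% exact intervals (red circles, dashed line for all autosomes at 21.0%) and by the input density of listed regions within 100 kb (blue squares). Chromosome 7 is highest and chromosome 15 lowest by either measure.

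Within chromosome 8, the stretch from 80 to 100 Mb held 92 narrow regions and only 5 members (5.43%, 95% exact interval 1.79 to 12.2%). In the rest of the chromosome 62 of 250 narrow regions were members (24.8%, 19.6 to 30.6%). The intervals treat regions as independent, so they are no test between the 2 parts. The stretch was delimited with earlier results of these data known, so this is a description.

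Next, it was asked how members lay relative to other listed regions, a property that the rule did not use. The median distance from a member to the nearest listed region was 2400 bp (quartiles 1000 and 6900 bp), against 2800 bp (1000 and 8600 bp) in the comparison and 2400 bp over all autosomal regions. The nearest region was 5 kb away or less for 993 members (67.7%, 95% exact interval 65.2 to 70.1%) and for 3544 comparison regions (64.2%, 63.0 to 65.5%). It was more than 50 kb away for 84 members (5.73%, 4.59 to 7.04%) and for 291 comparison regions (5.28%, 4.70 to 5.90%), against 3.85% (3.68 to 4.02%) over all autosomal regions. A distance of 800 bp, the shortest in the list, was found for 250 members (17.0%) and 980 comparison regions (17.8%). Members had a median of 11 other regions within 100 kb, as did comparison regions. The intervals of members and comparison regions overlapped at over 50 kb, whereas both lay above the whole list there, and no difference was tested.

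The enrichment of the neighbours was compared in the same way. The region closest to a member had a median enrichment of 2.27-fold (quartiles 1.80 and 2.91), compared with 2.18-fold (1.72 and 2.82) beside comparison regions and 2.22-fold beside all autosomal regions, each computed with an input floor of 3 reads. It was 4-fold or more beside 120 members (8.18%, 95% exact interval 6.83 to 9.70%) and beside 448 comparison regions (8.12%, 7.41 to 8.87%), with 8.33% beside all autosomal regions. Its median width was 3400 bp in both sets, and it was 10 kb wide or more beside 82 members (5.59%) and 267 comparison regions (4.84%). The share beside members was thus near that of the whole list.

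Distances among members depend on how few they are, 2.99% of autosomal regions, and are given as a description. The median distance between a member and the nearest other member was 296400 bp, and 56 members (3.82%) had another one within 10 kb. For 42 members the nearest listed region was itself a member. In 6 members the gap to another one was only 800 bp, for example on chromosome 13, where a member at 11180401 to 11182400 (46 and 5 reads, 6.34-fold) was followed by one at 11183201 to 11184800 (61 and 10 reads, 4.21-fold). Of the 1972 bins of 1 Mb with a listed autosomal region, 920 held a member, 562 of them exactly 1, and 43 held 4 or more. The bins with the most members were on chromosome 16 from 30 to 31 Mb, where 7 of 14 narrow regions were members, and on chromosome 13 from 31 to 32 Mb (6 of 17) and from 37 to 38 Mb (6 of 14). These bins were also crowded with regions of any width, with 80, 86 and 87 of them, and their members stayed between 4.02-fold and 6.67-fold.

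At the other extreme, the most isolated member, on chromosome 11 at 24999401 to 25000400, was 1118 kb away from the nearest listed region and held 62 ChIP reads and 10 input reads (4.28-fold, 2.18 to 9.35). The dense 400 bp member on chromosome 2 was 959.8 kb away from its neighbour (8.28-fold, 3.36 to 26.4). A member on the same chromosome at 150610201 to 150611400 (37 and 6 reads, 4.25-fold, 1.78 to 12.3) was 741.0 kb away. Toward the chromosome ends the sets had similar shares. The 10 Mb after the first region of each autosome contained 6.61% of members and 6.93% of comparison regions, and the last 10 Mb contained 9.54% and 9.70%.

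Strong enrichment was not limited to narrow regions. Of the 3690 autosomal regions with 4 input reads or more and an enrichment of 4-fold or more, members made up 39.8%. The other 2223 were wider than 2000 bp, which is 5.33% of the 41676 regions of that width, and had medians of 3000 bp, 67 ChIP reads and 10 input reads. Against the input of their neighbours, 66 of 2076 such regions stayed at 4-fold or more (3.18%), compared with 8.74% of members. This difference was not tested.

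Finally, the members were set beside the loci of the fusion-related genes that the study examined by ChIP-qPCR. Fn1 encodes the matrix protein fibronectin, Itga11 an integrin subunit that binds collagen, and Col1a1 a chain of type I collagen. None of the 5 amplicons lay in a member, and since members covered only 2317 kb in all, nothing is read from this. The member nearest to the Fn1 amplicon was 165.8 kb away, on chromosome 1 at 71554601 to 71556400 (43 and 5 reads, 5.93-fold, 2.35 to 19.2). That nearest to the Itga11 amplicon was 120.0 kb away, on chromosome 9 at 62403201 to 62404200 (32 and 5 reads, 4.41-fold, 1.71 to 14.5). For the 3 Col1a1 amplicons it was the same member, on chromosome 11 at 94693401 to 94694600, with the same pair of counts and at distances of 89.8, 109.9 and 141.7 kb. The 3 members had 2.61-fold, 2.99-fold and 2.97-fold against the input of their neighbours. Other genes near members are not named, since an annotation of the build of the files was not used here.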

How the data were processed

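Reads of 1 macroH2A1.1 ChIP library and 1 input library were aligned by the authors to mm9 with Bowtie 2 version 2.0.6, as the submitters' processing notes state, and enriched regions were called against input. The study's methods name SICER as the caller, whereas the deposited list carries the name epic. Widths in the list were multiples of 200 bp, which is not the window size that the methods give. Deposited values were the raw count of ChIP and of input reads per region, as the caller counted them and not scaled. The deposited log2 fold change was used only to recover the library factor, which was the same for each region with input reads, and was rounded to 1.45. The deposited p-values were not used. The list holds only regions that passed the caller's FDR limit, and library totals are not known from it.

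Regions were selected by the rule in the report, and the members, settings and lists were chosen with earlier results of these data known. For each enrichment, 95% exact limits (Clopper-Pearson) of ChIP reads among both counts were converted to folds. Neighbouring input was pooled over other listed regions whose edges lay within 100 kb, with at least 3 required. Regions named were the 5 highest by enrichment and by ChIP reads, the highest lower limit per autosome, those at the limit, the narrowest, the 3 most isolated, the closest pair, the 3 fullest 1 Mb bins and those nearest to each amplicon. Dense regions, the locus on chromosome 13 and the members highest against neighbouring input were named after their values were seen. Alternatives changed the width, input and enrichment limits, added a read, joined regions, included chromosome X or replaced the input. The genome at hand was GRCm38, and on 5 of 20 chromosomes the last region ended past its length, so genes and sequences were not assigned. Python 3.11.15, numpy 2.4.6, pandas 2.3.3 and scipy 1.17.1 were used, and the code was tested on simulated data.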

Additional observations from a re-analysis of the deposited data

How the results depend on the processing

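Of 74 recomputed values, 37 stayed within the interval of the reported value or within 1.5 times the count, and 37 moved. Neighbouring input within 50 or 200 kb, input of the whole chromosome, and leaving out chromosomes 7 and 15 were added after the data had been seen. Of these, leaving out both chromosomes moved neither the count of members nor their share of narrow regions. The share was 25.2% and 17.4% with width limits of 1600 and 2400 bp, 12.5%, 3.27% and 24.9% with an input minimum of 6, of 8 and none, 41.7% and 10.3% with limits of 3-fold and 5-fold, 16.7% with 1 read added, and 19.4% after joining within 5 kb. The count of regions chosen was 827 at 1600 bp, 782 and 172 at input minimums of 6 and 8, 2911 and 719 at 3-fold and 5-fold, and 474 after joining. With neighbouring input it was 269 (4.24%) within 100 kb, 281 (4.94%) within 50 kb, 280 (4.17%) within 200 kb and 204 (2.92%) with chromosome-wide input; 116, 118, 110 and 93 of these were members. Among the regions chosen under each setting, those with a lower limit of 2-fold numbered 419 and 1304 at 1600 and 2400 bp, 378 and 115 at input minimums of 6 and 8, 77 with input within 100 kb and 252 after joining. The lower limit is that of a region's own ChIP and input counts, not of neighbouring input. It was 2-fold or more in 75 of the 116 members chosen with input within 100 kb. The distance to the nearest region was 1800 bp at the minimum of 8 and 12400 bp after joining. The enrichment of that region was 2.33-fold at 5-fold and 2.63-fold with input within 100 kb. Chromosome 7 held 4.82% of the regions chosen at 2400 bp, 2.33% at the minimum of 8, 13.8% with input within 100 kb and 4.85% after joining. Limits and joining change what is counted by construction, while for the input replacements the cause was not tested. No paired analysis was possible because there was only 1 ChIP and 1 input library. Depth limits each single member, with a median of 6 input reads.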

Other observations

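The input minimum left out 360 narrow autosomal regions with 0 to 3 input reads, 4.90% of all narrow ones. Their median was 34 ChIP reads, and each region with at least 1 input read was enriched 4-fold or more. This was nearly fixed in advance, since no autosomal region in the list held fewer than 17 ChIP reads. The 95% exact interval began at 2-fold or higher in 338 of the 360 and at 4-fold or higher in 50, of which 18 had no input read. Against the input of neighbouring regions, 77 of 288 reached 4-fold, compared with 116 of 1327 members. Chromosome 7 held 30 of the 360, which was 14.4% of its narrow regions, and chromosome 15 held 6 (1.21%). The highest lower limit among those with at least 1 input read, 8.88-fold, was found on chromosome 2 at 120926201 to 120927600, where 74 ChIP reads stood against 1 input read (51.0-fold, upper limit 2043). A region with 0 input reads had a higher one, 11.2-fold, on chromosome 6 at 125826801 to 125827400 (62 ChIP reads). Both limits were above the highest of any member, 8.58-fold.

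Chromosome X, which the rule leaves out, had 273 narrow regions with 4 input reads or more, of which 57 were enriched 4-fold or more (20.9%, 95% exact interval 16.2 to 26.2%; autosomes 21.0%). Their medians were 40 ChIP reads and 5 input reads. Of 40 with enough neighbours, 7 stayed at 4-fold or more against neighbouring input. The highest enrichment, 7.59-fold (2.76 to 29.1), was at 12824001 to 12826000, with 44 ChIP reads and 4 input reads.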
